A study of Arabidopsis thaliana with 7 samples.

Results

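Glutathione S-transferases outside the flavonoid pathway were followed in whole 5-day-old Arabidopsis seedlings. The 10 genes were chosen by their locus identifiers, with no measured value in the rule. Of the phi class they are GSTF2 (AT4G02520), GSTF6 (AT1G02930), GSTF7 (AT1G02920), GSTF8 (AT2G47730), GSTF9 (AT2G30860) and GSTF10 (AT2G30870). Of the tau class they are GSTU5 (AT2G29450), GSTU13 (AT1G27130), GSTU19 (AT1G78380) and GSTU20 (AT1G78370). All 10 are in the table, among 21184 genes, on 11 rows of transcript models, and all passed the filter on low values. RNA sequencing compared the wild type Col-0 (replicates 1 to 4) with tt4-11 (replicates 2 to 4; replicate 1 was not analysed here), which the labels call a null line for chalcone synthase, the enzyme that opens flavonoid synthesis. Both groups grew at 22 °C with 2% sucrose and unbroken light near 100 µE, conditions that the series describes as favouring flavonoid production. The labels name no other allele or treatment and do not say whether replicates were separate cultures, so each p-value reflects the spread between the samples sequenced, which may be technical.

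Glutathione S-transferases join the tripeptide glutathione to reactive or foreign molecules, which marks them for transport into the vacuole, and some bind small molecules without modifying them. The phi and tau classes make up most of the family in plants, and many members respond to stress, hormones or herbicide safeners. The phi gene GSTF12, also called TT19, serves the deposition of flavonoids and is not one of the 10 genes. It stood at 49.5 ± 15.5 scaled reads in Col-0 (SD, n = 4) against 49.4 ± 7.02 in tt4-11 (SD, n = 3), and was not called (limma, Benjamini-Hochberg adjusted p = 0.933).

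Levels are scaled reads, that is read counts divided by a size factor for each library. The recovered reads numbered 2021368 to 2205449 a library. Changes are tt4-11 minus Col-0 in log2(scaled reads + 1), each with its standard error (SE), and genes with few reads look less changed on this scale than they are. Values by library follow the order of the replicate numbers. Two-sided tests used limma, adjusted by Benjamini-Hochberg over the 13301 genes tested, and a gene was called at an adjusted p of 0.05. Single genes were also compared by an exact permutation test over all 35 assignments of the group labels, which cannot give a two-sided p under 0.0571. TT4, the gene of chalcone synthase, stood between 2464 and 3148 scaled reads in Col-0 and between 54.9 and 96.7 in tt4-11. On the second principal component Col-0 replicate 1 stood at 26.1 and the other libraries between -23.3 and 13.5.

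Of the 10 genes 1 fell, 0 rose and 9 were not called. The gene that fell was GSTU20, to 71.3% of its Col-0 level. Over all genes tested 6.55% were called lower and 7.07% higher, 13.6% in all, so 1 of 10 lies near the background. DESeq2 and edgeR on the reads also called 1 lower and 0 higher, and 4 of 10 had an unadjusted p under 0.05, against 3899 of 13301 genes tested. The change was negative in 8 of the 10 genes and the median was -0.25, beside 51.2% negative and -0.01 over all genes tested. After removal of a trend with transcript length the change was higher in all 10 genes. GSTF9 went from -0.08 to 0.06 and GSTF10 from -0.30 to -0.15, beside a median of 0.0005 over all genes tested. In GSTU20 and GSTU13 the highest tt4-11 library was lower than the lowest Col-0 library. These are 2 of 10 genes, beside 12.9% of all genes tested. The reverse order held in 0 of 10, beside 13.7%, and the libraries of the other 8 overlapped.

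**Figure D1:**
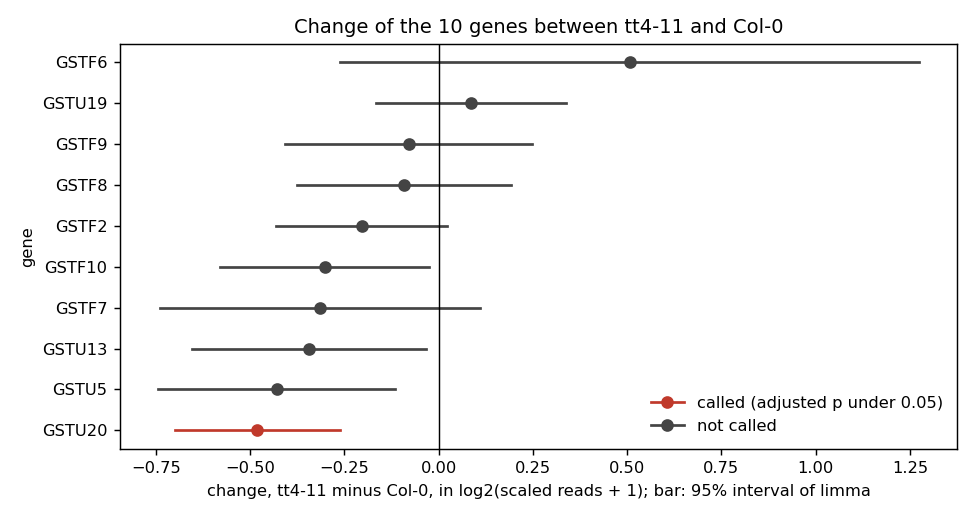
Change of each gene between tt4-11 and Col-0 in log2(scaled reads + 1) on the horizontal axis, with genes on the vertical axis; points are limma estimates, bars their 95% intervals, and red marks an adjusted p under 0.05. GSTU20 is the called gene at -0.48, and the widest interval is that of GSTF6, from -0.26 to 1.27.

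GSTU20 and GSTU19 are the adjacent tau genes at the head of a cluster on chromosome 1. GSTU20 is known as a partner of the jasmonate-conjugating enzyme JAR1 in far-red light signalling, and also for a part in aliphatic glucosinolate synthesis. GSTU19 is known for high activity on model substrates and for induction by safeners. In the TAIR10.1 build GSTU20 lies on chromosome 1 at 29484120 to 29485389 and GSTU19 at 29486387 to 29488007, both on the minus strand with 2 exons, 997 bases apart. Their coding sequences were 76.9% identical, with no identical run over 18 bases, and no 100-base window of either transcript occurred in a transcript of another gene.

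The sequences around both annotated starts are shown because GSTU20 was called and its neighbour GSTU19 was not. Each runs 5′ to 3′ in the direction of transcription, from 250 bases before the start to 50 bases into the transcript, from the RefSeq TAIR10.1 genome. Capitals mark TGACG on either strand, the core of the as-1 element to which TGA factors bind. The GSTU19 window is chr1:29487958-29488257 and the GSTU20 window chr1:29485340-29485639, both on the minus strand.
GSTU19: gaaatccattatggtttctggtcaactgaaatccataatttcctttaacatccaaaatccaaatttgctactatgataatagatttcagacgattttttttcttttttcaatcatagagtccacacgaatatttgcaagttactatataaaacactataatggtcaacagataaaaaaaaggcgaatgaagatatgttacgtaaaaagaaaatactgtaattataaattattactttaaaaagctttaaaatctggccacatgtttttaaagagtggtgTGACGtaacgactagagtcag
GSTU20: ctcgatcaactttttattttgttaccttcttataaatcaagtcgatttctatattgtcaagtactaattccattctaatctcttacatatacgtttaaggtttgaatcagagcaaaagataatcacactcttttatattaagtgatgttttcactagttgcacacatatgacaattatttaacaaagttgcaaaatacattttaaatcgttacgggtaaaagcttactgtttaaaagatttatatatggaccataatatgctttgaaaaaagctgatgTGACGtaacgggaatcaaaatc
Each window holds 1 TGACG, with its first base 30 bases into the transcript in GSTU19 and 29 bases into it in GSTU20. It lies in the longest string that both windows share, tgTGACGtaacg, of 12 bases. Of 27443 start windows of protein-coding genes, 4 hold that string on either strand, which is 0.0146%. GSTU19 and GSTU20 are 2 of the 4 by the way the string was chosen, and the other 2 belong to AT3G18440 and AT4G34050. The share therefore cannot show that the match is unusual. This search was chosen after the values were seen. TGACG alone was in 4 of the 10 windows (GSTF10, GSTU5, GSTU19 and GSTU20) and in 23.3% of all windows. The W-box core TTGAC was in 7 of 10 and in 50.3% of all windows, where TTGACG counts for both motifs. The G-box CACGTG was in 1 of 10 (GSTF6) and in 7.67% of all windows, and the evening element AAAATATCT in 0 of 10 and in 2.81%. These are matches of letters only.

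GSTU20 gave 894, 915, 1041 and 1136 scaled reads in the Col-0 libraries against 721, 713 and 697 in tt4-11. All tt4-11 libraries lay below all Col-0 libraries, and they lay close together. Col-0 averaged 997 ± 113 (SD, n = 4) against 710.4 ± 11.9 for tt4-11 (SD, n = 3), a fall by 0.48 on the log2 scale (SE 0.10, limma, Benjamini-Hochberg adjusted p = 0.00668; exact two-sided permutation p = 0.0571, the smallest possible). The authors' deposited change, read as Col-0 over tt4-11 and reversed in sign here, is -0.47 (SE 0.11) with an adjusted p of 0.000665. After removal of a trend with transcript length the change was -0.33 and the call was lost (adjusted p = 0.0548); the call held without any 1 library (-0.53 to -0.42, adjusted p up to 0.0324).

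GSTU19 was the most abundant of the 10 genes, above 99.8% of the genes tested. Its scaled reads were 3568, 3099.8, 3846 and 4122 in the Col-0 libraries against 3278, 4159 and 4217 in tt4-11. The groups overlapped, with means of 3659 ± 436 (SD, n = 4) and 3884 ± 526 (SD, n = 3). The change was 0.08 (SE 0.12, 95% interval -0.17 to 0.34) and was not called (limma, Benjamini-Hochberg adjusted p = 0.679). Without any 1 library it ranged from 0.01, without Col-0 replicate 2, to 0.20, without tt4-11 replicate 2.

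The ratio of GSTU20 to GSTU19 within a library, compared after the values were seen, does not depend on the scaling. It was 0.251, 0.295, 0.271 and 0.276 in the Col-0 libraries against 0.220, 0.172 and 0.165 in tt4-11. All tt4-11 ratios lay below all Col-0 ratios, with means of 0.186 ± 0.0298 (SD, n = 3) and 0.273 ± 0.0183 (SD, n = 4). The log2 ratio fell by 0.57 (exact two-sided permutation p = 0.0571, the smallest possible), and by 0.49 to 0.69 without any 1 library, most without tt4-11 replicate 2.

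**Figure D2:**
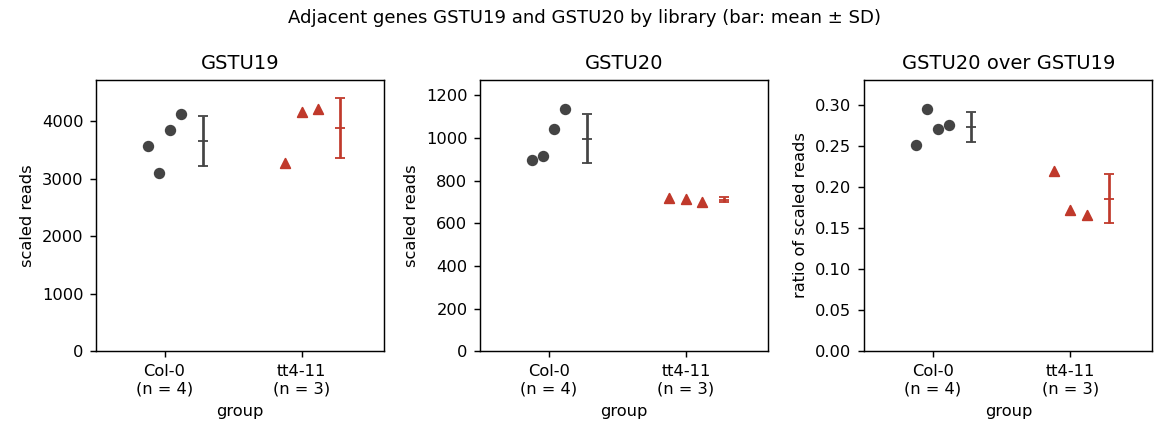
Scaled reads of GSTU19 and of GSTU20 and their ratio (vertical axes, from 0) in each Col-0 and tt4-11 library (horizontal axis); bars give mean ± SD. GSTU20 sits between 697 and 721 in tt4-11 and between 894 and 1136 in Col-0, while the GSTU19 libraries of the groups overlap.

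The other tau genes, GSTU5 and GSTU13, were not called. GSTU5 lies in a cluster of tau genes on chromosome 2, at 12624403 to 12625790 (minus strand, 2 exons), with 6 other family genes within 20000 bases. It gave 257, 293, 224 and 346 scaled reads in the Col-0 libraries against 223, 228 and 169 in tt4-11. The groups touched, since tt4-11 replicate 3 stood above Col-0 replicate 3. Col-0 averaged 280.1 ± 52.2 (SD, n = 4) against 207 ± 32.5 for tt4-11 (SD, n = 3), a change of -0.43 (SE 0.15, limma, Benjamini-Hochberg adjusted p = 0.0659). Without Col-0 replicate 1 the change was -0.46 (adjusted p = 0.0477) and without Col-0 replicate 3 it was -0.53 (adjusted p = 0.0354), so GSTU5 was called in both. Other settings weakened it. The change was -0.32 without Col-0 replicate 4 (adjusted p = 0.149) and -0.29 without tt4-11 replicate 4 (0.286). With a trend with transcript length removed it was -0.30 (0.222).

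GSTU13, a tau gene known for a role in indole glucosinolate metabolism and immunity, lies on chromosome 1 at 9425280 to 9426897 (plus strand, 2 exons). It gave 92.7, 86.5, 81.5 and 92 scaled reads in the Col-0 libraries against 59.9, 71.8 and 77.0 in tt4-11. The groups did not overlap, by a gap smaller than the spread within tt4-11. Col-0 averaged 88.2 ± 5.22 (SD, n = 4) against 69.6 ± 8.79 for tt4-11 (SD, n = 3), with a change of -0.34 (SE 0.15, limma, Benjamini-Hochberg adjusted p = 0.129). Its 363 reads in Col-0 and 222 in tt4-11 make it 1 of the least covered of the 10 genes.

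Among the phi genes 0 of 6 were called, beside 13.6% of all genes tested. GSTF9 and GSTF10 are neighbours on chromosome 2, at 13138882 to 13140392 and at 13141290 to 13142676, both on the plus strand with 3 exons and 897 bases apart. GSTF10 is known as a partner of the receptor kinase BAK1. It gave 1706, 1500.4, 1349 and 1712 scaled reads in the Col-0 libraries against 1282, 1550.4 and 1017 in tt4-11. The groups overlapped through tt4-11 replicate 3. Col-0 averaged 1567 ± 175 (SD, n = 4) against 1283 ± 267 for tt4-11 (SD, n = 3), a change of -0.30 (SE 0.13, 95% interval -0.58 to -0.02, limma, Benjamini-Hochberg adjusted p = 0.136). It was -0.45 without tt4-11 replicate 3 (adjusted p = 0.0569) and -0.15 without tt4-11 replicate 4 (0.542) or with the length trend removed (0.521).

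GSTF9 gave 646, 921, 1036 and 1196 scaled reads in the Col-0 libraries against 817, 926 and 891 in tt4-11. All tt4-11 values lay within the range of Col-0, whose replicate 1 was the lowest of the 7 libraries. The change was -0.08 (SE 0.15, 95% interval -0.41 to 0.25, adjusted p = 0.777 by limma with Benjamini-Hochberg adjustment). Its sign was not stable: the change was -0.25 without Col-0 replicate 1, 0.04 without Col-0 replicate 4 and 0.06 with the length trend removed, none of them called. The coding sequences of GSTF9 and GSTF10 were 77.6% identical.

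GSTF2 is known to bind auxin, camalexin and flavonoid glycosides and to respond to ethylene and salicylate. It lies on chromosome 4 at 1110343 to 1112033 (minus strand, 3 exons), where 1442 of its bases are overlapped by AT4G02510 on the opposite strand. Its scaled reads were 837, 763, 732 and 922 in the Col-0 libraries against 645, 771 and 699 in tt4-11. The groups overlapped through tt4-11 replicate 3, and the change was -0.20 (SE 0.11, 95% interval -0.43 to 0.02, adjusted p = 0.220 by limma with Benjamini-Hochberg adjustment). The library kit keeps the strand, but whether the counting used it is not given in the sources used here, so reads of the pair may not be separated.

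GSTF2 has a close copy, GSTF3, with a coding sequence 94.5% identical, though no 100-base window was shared. GSTF3 was far lower, at 37.7 ± 13.4 (SD, n = 4) and 34.2 ± 2.23 scaled reads (SD, n = 3), with a change of -0.08 (adjusted p = 0.872 by limma with Benjamini-Hochberg adjustment). Added together, GSTF2 and GSTF3 gave 861, 794, 786 and 964 in the Col-0 libraries against 678, 803 and 736 in tt4-11. That is a change of -0.20 (exact two-sided permutation p = 0.171), the same as for GSTF2 alone.

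GSTF8, a gene used as a marker of early stress, lies on chromosome 2 at 19556326 to 19559485 (plus strand, 3 exons). On the same strand 516 of its bases overlap AT2G47720. It gave 421, 370.0, 571 and 439 scaled reads in the Col-0 libraries against 376, 414 and 465 in tt4-11. All tt4-11 values lay within the Col-0 range, and the change was -0.09 (SE 0.13, 95% interval -0.37 to 0.19, adjusted p = 0.692 by limma with Benjamini-Hochberg adjustment). Without Col-0 replicate 3 it was 0.03.

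GSTF6, known for a step of camalexin synthesis, and its close copy GSTF7 stand side by side on chromosome 1, at 661088 to 662475 and at 658578 to 659980, both on the minus strand with 3 exons. Their coding sequences were 94.7% identical. The longest identical run was 116 bases, longer than a read of 100 bases, and it is shown because reads that lie wholly within it cannot be assigned to either gene. It covers coding bases 310 to 425 of GSTF6 and 313 to 428 of GSTF7.
GSTF6 and GSTF7: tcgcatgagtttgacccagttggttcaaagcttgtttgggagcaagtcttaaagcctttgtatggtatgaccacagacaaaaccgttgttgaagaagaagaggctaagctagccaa
Of the 100-base windows of the transcripts, 17 were shared, which is 1.56% in GSTF6 and 1.53% in GSTF7, so most of each transcript distinguishes the copies.

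GSTF6 gave 45.8, 81.7, 145 and 200 scaled reads in the Col-0 libraries against 90.8, 189.7 and 179 in tt4-11. Col-0 alone spanned 4.36-fold, the widest range of the 10 genes, and all tt4-11 values lay within it. Its change was 0.51 with an SE of 0.36 and a 95% interval of -0.26 to 1.27 (limma, Benjamini-Hochberg adjusted p = 0.379). The change ranged from 0.13 to 0.84 without any 1 library, lowest without Col-0 replicate 1 and highest without tt4-11 replicate 2.

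GSTF7 gave 62.1, 63.4, 96.1 and 97 scaled reads in the Col-0 libraries against 55.2, 80.1 and 54.9 in tt4-11. The groups overlapped, with a change of -0.31 (SE 0.20, 95% interval -0.74 to 0.11, adjusted p = 0.319 by limma with Benjamini-Hochberg adjustment). It ranged from -0.49 without tt4-11 replicate 3 to -0.21 without Col-0 replicate 4. The sum of GSTF6 and GSTF7 was 198 ± 86.7 (SD, n = 4) in Col-0, beside 217 ± 63.7 (SD, n = 3) in tt4-11, a change of 0.20 (exact two-sided permutation p = 0.743). Without Col-0 replicate 1 it was -0.06.

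**Figure D3:**
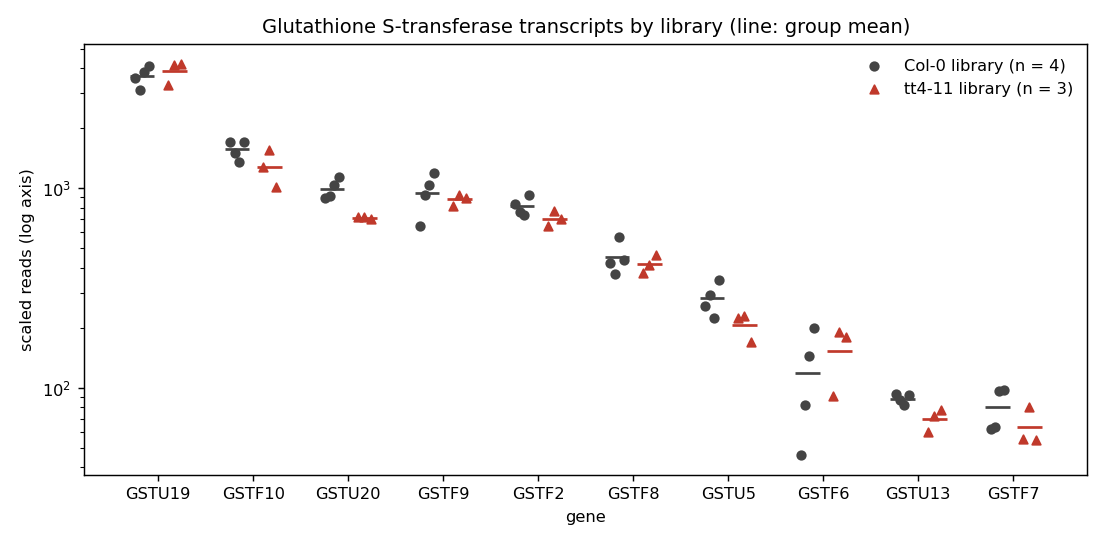
Scaled reads on a log axis of the 10 genes (horizontal axis, by Col-0 mean) in each of the 4 Col-0 and 3 tt4-11 libraries, with lines at group means. GSTU19 lies at the top in every library, the GSTU20 and GSTU13 libraries of the groups do not overlap, and GSTF6 spans 45.8 to 200 within Col-0.

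Levels of different genes were set side by side per length, as scaled reads per 1000 bases of the longest annotated transcript. In Col-0 GSTU19 led with 3267 ± 389 (SD, n = 4), followed by GSTF10 with 1384 ± 155, GSTU20 with 869 ± 98.9 and GSTF9 with 770.3 ± 188. Below them came GSTF2 with 553 ± 57.6, GSTF8 with 258 ± 48.9 and GSTU5 with 221 ± 41.1, and the lowest were GSTF6 with 99.5 ± 57.5, GSTU13 with 68.6 ± 4.06 and GSTF7 with 65.7 ± 16.1. The Col-0 libraries of neighbours in this order overlapped between GSTU20 and GSTF9, GSTF9 and GSTF2, GSTF8 and GSTU5, GSTF6 and GSTU13, and GSTU13 and GSTF7. Within the same library GSTU20 still stood above GSTF9 in 4 of 4 Col-0 libraries. GSTF9 stood above GSTF2 and GSTF6 above GSTU13 in 3 of 4, and GSTF8 above GSTU5 and GSTU13 above GSTF7 in 2 of 4. GSTF6, GSTF8 and GSTF9 have 2 models each in the RefSeq annotation, while the deposited values hold 2 models for GSTF6 and 1 each for GSTF8 and GSTF9. Genes with 2 models in that annotation had a median of 14.2 scaled reads and genes with 1 model 39.2. The place of these 3 genes in the order is therefore uncertain, as is the part of GSTF6 in its sum with GSTF7.

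Together the 10 genes held 9002 ± 940 scaled reads (SD, n = 4) in Col-0, beside 8372 ± 783 (SD, n = 3) in tt4-11, or 0.439% and 0.413% of all scaled reads. Of the scaled reads of all glutathione S-transferase genes in the table they made up 78.0% in Col-0 and 77.2% in tt4-11. The share of GSTU19 in the sum of the 10 genes was 41.8%, 38.3%, 42.2% and 40.2% in the Col-0 libraries against 43.4%, 45.7% and 49.8% in tt4-11. These shares did not overlap (exact two-sided permutation p = 0.0571, the smallest possible).

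Of the other glutathione S-transferase genes 41 of 43 listed were in the table and 28 passed the filter. Of these 2 rose, 1 fell and 25 were not called, with a median change of -0.10. Over all genes tested 13.6% were called and the median was -0.01. GSTU17, a tau gene known for a role in light signalling and drought, gave 141, 120.1, 191 and 202 scaled reads in the Col-0 libraries against 334, 333 and 322 in tt4-11. It rose by 1.04 (SE 0.16, limma, Benjamini-Hochberg adjusted p = 0.000531), with all tt4-11 libraries above all Col-0 libraries. It overlaps its tandem neighbour GSTU18 by 71 bases on the same strand, and GSTU18 was not called (-0.35, adjusted p = 0.493).

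GSTU16 rose from 95.7 ± 18.2 (SD, n = 4) to 139 ± 8.37 (SD, n = 3) scaled reads (0.56, SE 0.15, limma, Benjamini-Hochberg adjusted p = 0.0252). Its call was lost without Col-0 replicate 2 (adjusted p = 0.0596) and without tt4-11 replicate 2, 3 or 4 (0.101, 0.0769 and 0.0626). GSTU7, a member of the chromosome 2 cluster that holds GSTU5, fell from 132 ± 23.9 (SD, n = 4) to 76.7 ± 1.35 (SD, n = 3), by 0.76 (SE 0.15, adjusted p = 0.00398). A non-coding gene overlaps 636 bases of GSTU7 on the opposite strand. In the same cluster GSTU1 gave -0.54, GSTU4 0.49 and GSTU6 0.30, none of them called (adjusted p = 0.0576, 0.267 and 0.530; chosen after their values were seen). The most abundant of the uncalled genes were GSTL3 of the lambda class at 590.1 and 540.0 scaled reads and the dehydroascorbate reductase DHAR2 at 228 and 211 (means of Col-0 and tt4-11).

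By class, 4 of 19 tested tau genes were called, 2 higher and 2 lower, with the 4 tau genes among the 10 included. The share called over all genes tested was 13.6%. In the phi class 0 of 9 tested genes were called, and 0 were called in the theta, zeta and lambda classes and among the dehydroascorbate reductases, which together held 10 tested genes. The median change was -0.35 in the tau class and -0.08 in the phi class, and the difference between classes was not tested.

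**Figure D4:**
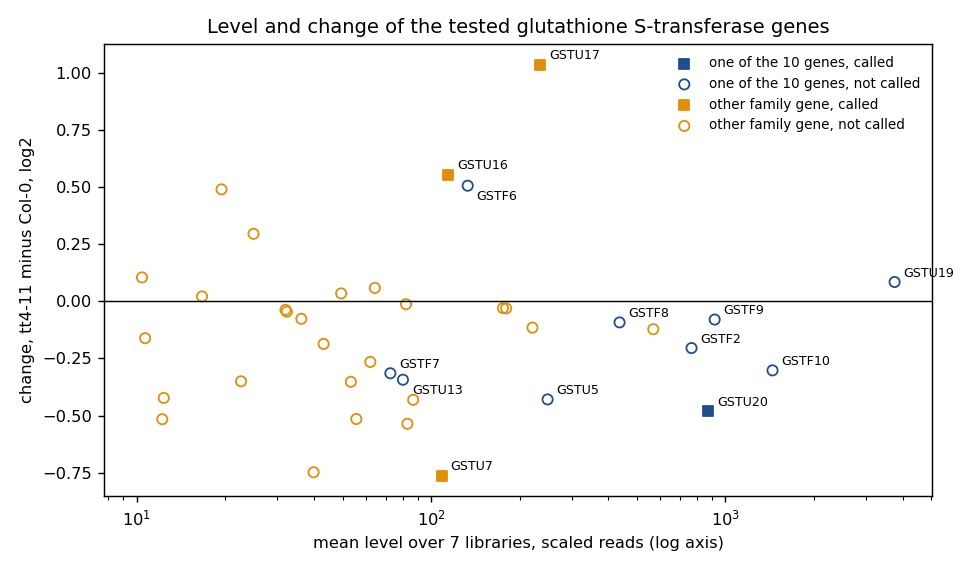
Mean level over the 7 libraries in scaled reads (horizontal log axis) against the change in log2 (vertical axis) for the 38 tested glutathione S-transferase genes; filled squares are called genes. The called genes are GSTU20 and GSTU7 below 0 and GSTU16 and GSTU17 above it.

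Genes that make, break down or recycle glutathione, and the genes named glutathione peroxidases, were read in the same fit. In it 13.6% of all genes tested were called. In synthesis, breakdown and recycling 7 of 12 listed genes were tested: 0 rose, 1 fell and 6 were not called, with a median change of 0.10. GGCT2;2, a cyclotransferase that breaks glutathione down in the cytosol, fell from 189 ± 40.2 (SD, n = 4) to 117 ± 7.73 (SD, n = 3) scaled reads (-0.66, SE 0.16, limma, Benjamini-Hochberg adjusted p = 0.0121). That call was lost without tt4-11 replicate 2 (adjusted p = 0.0590). The organellar glutathione reductase GR2 gave 853 ± 42.5 and 1017 ± 61.3 (0.25, adjusted p = 0.0859) and the synthetase GSH2 gave 373 ± 36.4 and 337 ± 20.9 (-0.14, adjusted p = 0.405), and neither was called. GSH1, the first enzyme of synthesis, was not analysed here.

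Of 7 tested glutathione peroxidases, which reduce lipid and other peroxides, 2 rose, 1 fell and 4 were not called, with a median change of 0.27. The median over all genes tested was -0.01, and 13.6% of them were called. The plastid enzymes rose: GPX1 gave 411, 517, 520.2 and 581 scaled reads in Col-0 and 776, 804 and 1142 in tt4-11 (0.83, SE 0.14, limma, Benjamini-Hochberg adjusted p = 0.00136). GPX7 gave 7.64, 9.61, 3.88 and 10 in Col-0 and 19.7, 27.6 and 21.2 in tt4-11 (1.49, SE 0.34, adjusted p = 0.00962), a call lost without tt4-11 replicate 3 (adjusted p = 0.0682). GPX6 fell from 737 ± 54.3 (SD, n = 4) to 509.6 ± 53.9 (SD, n = 3), by 0.53 (SE 0.10, adjusted p = 0.00384). The groups did not overlap in any of these 3 genes. Over all genes tested the tt4-11 libraries lay above all Col-0 libraries in 13.7% and below them in 12.9%. GPX8 gave 0.39 and was not called (adjusted p = 0.0786), but was called without Col-0 replicate 4 (adjusted p = 0.0459) and with the length trend removed (0.0134). GPX2 gave 0.10 (adjusted p = 0.582).

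Among regulators and targets of the TGA detoxification response 8 of 13 listed genes were tested: 0 rose, 1 fell and 7 were not called, with a median change of 0.02. Over all genes tested 13.6% were called. TGA1, TGA2, TGA5, TGA6 and OPR1, each under 10 scaled reads on average, did not pass the filter, so nothing is said of their change. The cytochrome P450 gene CYP81D11 fell from 119 ± 33.2 (SD, n = 4) to 68.5 ± 9.46 (SD, n = 3) scaled reads (-0.76, SE 0.20, limma, Benjamini-Hochberg adjusted p = 0.0184). Its call was lost without Col-0 replicate 3 (adjusted p = 0.0575) and without tt4-11 replicate 3 or 4 (0.0514 and 0.0901). SCL14, a partner of TGA factors, gave 0.22, and NAC102 gave 0.23 (adjusted p = 0.297 and 0.200). Without tt4-11 replicate 4 these were 0.07 and 0.14. The vacuolar transporter of glutathione conjugates ABCC1 gave 0.50 and was not called (adjusted p = 0.137), and ABCC2 did not pass the filter.

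Markers of seedling parts were read beside these values. The summed level of 5 root markers was 11800.5 to 13070 scaled reads in Col-0 and 9668 to 12685 in tt4-11. PYK10 made up most of that sum, at a mean of 12364 scaled reads in Col-0. Of the 5 root markers 1, LRX1, fell, and 3 of 5 were lower in all tt4-11 libraries. Over all genes tested 6.55% were called lower, 7.07% higher, and 12.9% were lower in all tt4-11 libraries. All 5 root markers had a negative change, from -0.87 to -0.13, beside -0.48 for GSTU20. The groups did not overlap in EXPA7 (-0.87), LRX1 (-0.83) and COBL9 (-0.51). They overlapped in PYK10 (-0.13) and CASP1 (-0.32), so the root markers did not fall alike. The 5 shoot markers summed to 11363 to 13318 and 9428 to 11895, with 0 of 4 tested called. LHCB1.3 and RBCS1A made up most of the shoot sum, at means of 8359 and 3265 scaled reads in Col-0. The 6 seed markers summed to 114 to 432 and 303 to 966, and 3 of 5 tested rose (SESA3, SESA4 and OLEO1). In all 3 the groups overlapped, as tt4-11 replicate 4 (29.9, 54.9 and 32.7 scaled reads) lay within the Col-0 range. Their exact two-sided permutation p was 0.114, 0.171 and 0.114. None of these 16 markers was at 0 in all libraries. The shoot marker LHCA1 and the seed marker CRA1 came close, at means of 1.22 and 1.49 scaled reads over the 7 libraries, and did not pass the filter. The part of the markers in the changes of GSTU20 and the other genes was not tested. In whole seedlings fewer cells of a type and less RNA per cell cannot be told apart.

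The tested genes with the pattern most like that of GSTU20 were AT3G59540, annotated as a ribosomal L38e family protein, and TET2, a tetraspanin. Their centred log2 levels differed from those of GSTU20 by a root mean square of 0.040 and 0.043 over the 7 libraries, where GSTU20 itself varied by 0.261. Their changes were -0.53 and -0.47. Both were picked as the closest among the 13301 genes tested, over only 7 libraries, so their closeness alone does not show a link to GSTU20.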

How the data were processed

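Polyadenylated RNA of 4 Col-0 and 3 tt4-11 samples was sequenced with a stranded kit as single reads of 100 bases, per the labels' protocols. TopHat2, HISAT2, HTSeq and DESeq2 are named in the submitters' processing notes without versions or roles, and the genome build is not given in the sources used here. In the deposited table, there is 1 signal value per transcript model and library (23052 rows, 1 repeated row dropped). The authors scaled 6 of 7 columns by a size factor each, and the column of Col-0 replicate 4 holds whole counts as deposited. All values were whole multiples of the column's step (100% within 0.01), which gave back the reads. The deposited log2 fold changes and adjusted p-values of the authors were used for comparison only, with the sign of the changes reversed to tt4-11 over Col-0.

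Models were summed per locus, and genes were matched by locus identifier because 235 rows carry the name of another gene in 1 column. Genes were kept by filterByExpr (minimum count 10), log2(value + 1) was fitted with limma 3.58.1 (trend) without other factors, and p-values were adjusted by Benjamini-Hochberg. The design called for edgeR had all columns held counts. edgeR 4.0.16 and DESeq2 1.42.0 on the recovered reads were alternatives, as were TMM factors, filters, a pseudocount of 0.1, an adjusted p of 0.01, the replicate number as a block, leaving out each library, the most abundant model alone and removal of a length trend. Scripts were tested on simulated data. Positions and sequences are from RefSeq TAIR10.1, whose own annotation gave the coordinates. The members and lists were chosen with earlier results of these data known. Named are all 10 genes, called genes of the lists, the 2 most abundant uncalled genes of each list, GSTF3, and the 2 genes nearest in pattern to a called member; GSTF12 and further genes of the GSTU5 and GSTU17 clusters were added.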

Additional observations from a re-analysis of the deposited data

How the results depend on the processing

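The call of GSTU20 and the absence of any rise held under the other filters, TMM factors, edgeR, DESeq2, the pseudocount of 0.1, the adjusted p of 0.01, the most abundant model alone and the replicate block. With the length trend removed 0 of the 10 genes were called lower, and the change of GSTU20 was -0.33. Without single libraries 1 to 2 were called lower. Over all genes, 940 were higher and 871 lower; at an adjusted p of 0.01 it was 394 and 314, with the length trend removed 491 were lower, and without single libraries 426 to 925 were higher and 437 to 857 lower. The cause was not tested. Changes of GSTF8 and GSTF9, which were not called, changed sign in 1 and 2 of 17 alternatives. Deviations of same-numbered libraries of the groups were weakly correlated over 13301 genes (0.058, 0.017 and 0.064 for numbers 2, 3 and 4). The highest correlation with another number was -0.006, 0.104 and 0.033. Such weak values cannot show whether the numbers pair the samples, which the labels do not say. The replicate block called 1 of the 10 genes lower, 869 genes higher and 796 lower in all, and not GSTU16 (adjusted p = 0.0548). Without single libraries the change of the GSTF6 and GSTF7 sum ranged from -0.06 to 0.46 and that of the GSTF2 and GSTF3 sum from -0.26 to -0.14, and TMM factors and the pseudocount of 0.1 left both close to their values above. The 95% interval was widest in GSTF6, whose Col-0 libraries spanned 4.36-fold.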

Other observations

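The ratio of the close copies GSTF6 and GSTF7 within a library was 0.738, 1.29, 1.51 and 2.06 in the Col-0 libraries against 1.64, 2.37 and 3.26 in tt4-11. The values overlapped between the groups (exact two-sided permutation p = 0.114). GSTF6 has 2 annotated models and GSTF7 has 1, so the size of this ratio is uncertain, like the place of GSTF6 in the order of levels. The ratio of the neighbours GSTF10 and GSTF9 was 2.64 in Col-0 replicate 1 and at most 1.63 in the other Col-0 libraries, and 1.57, 1.67 and 1.14 in tt4-11 replicates 2 to 4. Col-0 replicate 1 thus had the highest GSTF10 to GSTF9 ratio and the lowest GSTF6 to GSTF7 ratio of the 7 libraries. These ratios were chosen after the values were seen.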
